A study of Mus musculus with 4 samples.

Results

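The 10 genes described here make ceramide or exchange it with sphingomyelin and glucosylceramide: Sptlc1, Sptlc2, Cers2, Cers4, Cers5, Cers6, Degs1, Smpd1, Sgms1 and Ugcg. They were picked by name, as members of this pathway, and all 10 had a probe that could be named, among 20659 named genes on the array. Of the 22931 features that passed the filter on dim probes they make up 10. RNA came from whole hearts of male mice 5 days after the left anterior descending coronary artery had been tied off, which causes a myocardial infarction in every animal of both groups. The knock-out hearts (KO, VE-Cad-Cre-S1pr1 fl/fl, 2 arrays, replicates 3 and 4) carried floxed S1pr1 and a Cre recombinase under the promoter of VE-cadherin, a protein of endothelial junctions. The wild-type hearts (WT, 2 arrays, replicates 1 and 3) had the same operation. Ages were not in the labels used here, nor whether the WT mice carried Cre or floxed alleles. The arrays, 1-colour Agilent mouse designs labelled with Cy3, are counted as the samples. The labels do not tie each array to a heart of its own, so the p-values reflect array-to-array spread that could be technical. Which cells lost S1pr1 was not measured.

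Ceramide is the hub of sphingolipid metabolism. Serine palmitoyltransferase joins serine to a fatty acyl group at the membrane of the endoplasmic reticulum, ceramide synthases attach a further acyl chain, and a desaturase then turns dihydroceramide into ceramide. Sphingomyelin synthase and glucosylceramide synthase consume ceramide, sphingomyelinases release it again from sphingomyelin, and ceramidases cut it to sphingosine, from which sphingosine 1-phosphate, the ligand of the receptor S1pr1, is made. In the heart, cardiomyocytes, vessel cells and the macrophages of an infarct all carry out these steps.

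Levels are given as log2 processed signal relative to the 75th percentile of the same array. A difference is the KO mean minus the WT mean of such levels. S1pr1, the targeted gene, was at -2.69 and -2.30 on the KO arrays against 0.43 and 0.95 on the WT arrays, and so was lower on both KO arrays. The files do not place its probe inside or outside the floxed stretch. The cardiomyocyte genes Myh6, Tnnt2 and Tnni3, which define the tissue, were well above background on all 4 arrays. Their levels were far lower on WT replicate 1, at 4.03, 4.04 and 1.44. On KO replicate 3, the next lowest array, they were 7.33, 6.52 and 6.11. WT replicate 1 stood apart. On that array 54.3% of probes were well above background, against 69.4% to 73.4% on the other 3, and its lowest signal well above background was at -4.39, against -7.08 to -6.50. The 4 arrays shared 1 slide and 1 scan. KO replicates 4 and 3 were at positions 1 and 2, and WT replicates 3 and 1 at positions 3 and 4. Slide position and genotype therefore cannot be told apart. Nor can position and the order of the arrays within a genotype.

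None of the 10 genes passed the test between KO and WT hearts. Nor did S1pr1, the targeted gene, with a difference of -3.19 (adjusted p = 0.740 in limma). A gene that does not pass may therefore still differ. The features called at an adjusted p under 0.05 (limma, Benjamini-Hochberg over all 22931 features) were 0% in the higher and 0% in the lower direction, and the members' adjusted p ran from 0.740 to 0.850. Acid sphingomyelinase Smpd1 was 2.34-fold higher in KO by group means and the ceramide synthase Cers6 was 2.15-fold lower. Both intervals included 0. By group means these were the largest differences among the 10 genes in each direction, except that with a common floor under dim signals, or with normexp, Sptlc2 (-0.58 and -0.61) and Cers2 (-0.40 and -0.44) were further below 0 than Cers6 (-0.29 and -0.35). Without correction, 0 of 10 members and 2.76% of all features had a p under 0.05. With 2 against 2 arrays an exact two-sided permutation test cannot go below p = 0.333.

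Serine palmitoyltransferase commits serine and palmitoyl-CoA to the pathway. Sptlc1 encodes the subunit shared by all forms of the enzyme. Its level was -0.31 on KO replicate 3 and -0.43 on KO replicate 4, against 0.15 on WT replicate 1 and -0.49 on WT replicate 3. The KO values lay between the WT values. The difference was -0.20 (SE 0.38, 95% interval -1.21 to 0.81). Sptlc2 encodes a catalytic subunit. It was at -0.76 and -1.41 on KO replicates 3 and 4, against -0.13 and -0.87 on WT replicates 1 and 3. KO replicate 4 was the lowest array and WT replicate 1 the highest, while KO replicate 3 lay above WT replicate 3, so the groups overlapped. The difference was -0.58 (SE 0.45, interval -1.79 to 0.63). Sptlc2 was the only member with a further probe. That probe was dimmer and differed by -0.80. Its levels were -4.32 and -4.44 on the KO arrays and -2.66 and -4.50 on WT replicates 1 and 3, so WT replicate 1 alone stood out there. On KO replicate 4 and WT replicate 3 it lay below the lowest signal that was well above background on WT replicate 1, -4.39.

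Ceramide synthases differ in the acyl chain they attach. None of the 4 measured here passed the test, and differences between them were not tested. Cers2, which prefers very long chains, was at 1.47 and 1.31 on KO replicates 3 and 4, against 2.13 and 1.44 on WT replicates 1 and 3. Apart from WT replicate 1 these values lay close together, and the difference was -0.40 (SE 0.39). Cers5, which makes ceramide with shorter acyl chains such as palmitoyl, was at 2.18 and 1.88 in KO and at 2.46 and 1.97 in WT, a difference of -0.19 (SE 0.36). Its arrays overlapped.

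Cers6, which also prefers palmitoyl-CoA, had the smallest unadjusted p of the members in limma, 0.0630 (adjusted p = 0.740). Its levels were -5.35 and -5.44 on KO replicates 3 and 4, against -3.81 and -4.77 on WT replicates 1 and 3. Both KO arrays were lower than both WT arrays, and the KO arrays were within 0.095 of each other. The group means were -5.39 ± 0.07 in KO and -4.29 ± 0.68 in WT (SD, n = 2 each), and the difference was -1.10 (SE 0.44, interval -2.30 to 0.09). This probe was dim, with processed signals of 23.2 and 14.2 units in KO and 79.3 and 31.4 units in WT. The levels on KO replicate 3, KO replicate 4 and WT replicate 3 lay below the lowest signal that was well above background on WT replicate 1, -4.39. With all arrays raised to that floor the difference was -0.29, with normexp background correction (chosen after seeing the data) it was -0.35, and without WT replicate 1 it was -0.62.

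Cers4, a synthase that attaches chains of stearoyl length and longer, had a higher mean in KO. It was at 0.57 and 1.06 on KO replicates 3 and 4, against -0.80 and 0.80 on WT replicates 1 and 3. WT replicate 1 was low, and WT replicate 3 lay between the KO arrays. The difference was 0.82 (SE 0.64, interval -0.91 to 2.54), and without WT replicate 1 it was 0.02.

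Degs1, the desaturase that completes ceramide synthesis, varied least. Its levels were 3.07 and 3.04 on the KO arrays, against 3.32 and 3.13 on WT replicates 1 and 3. Both KO arrays were lower than both WT arrays, yet all 4 lay within 0.29. The difference was -0.17 (SE 0.31, interval -1.004 to 0.66), so the interval covers changes of either sign.

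**Figure D1:**
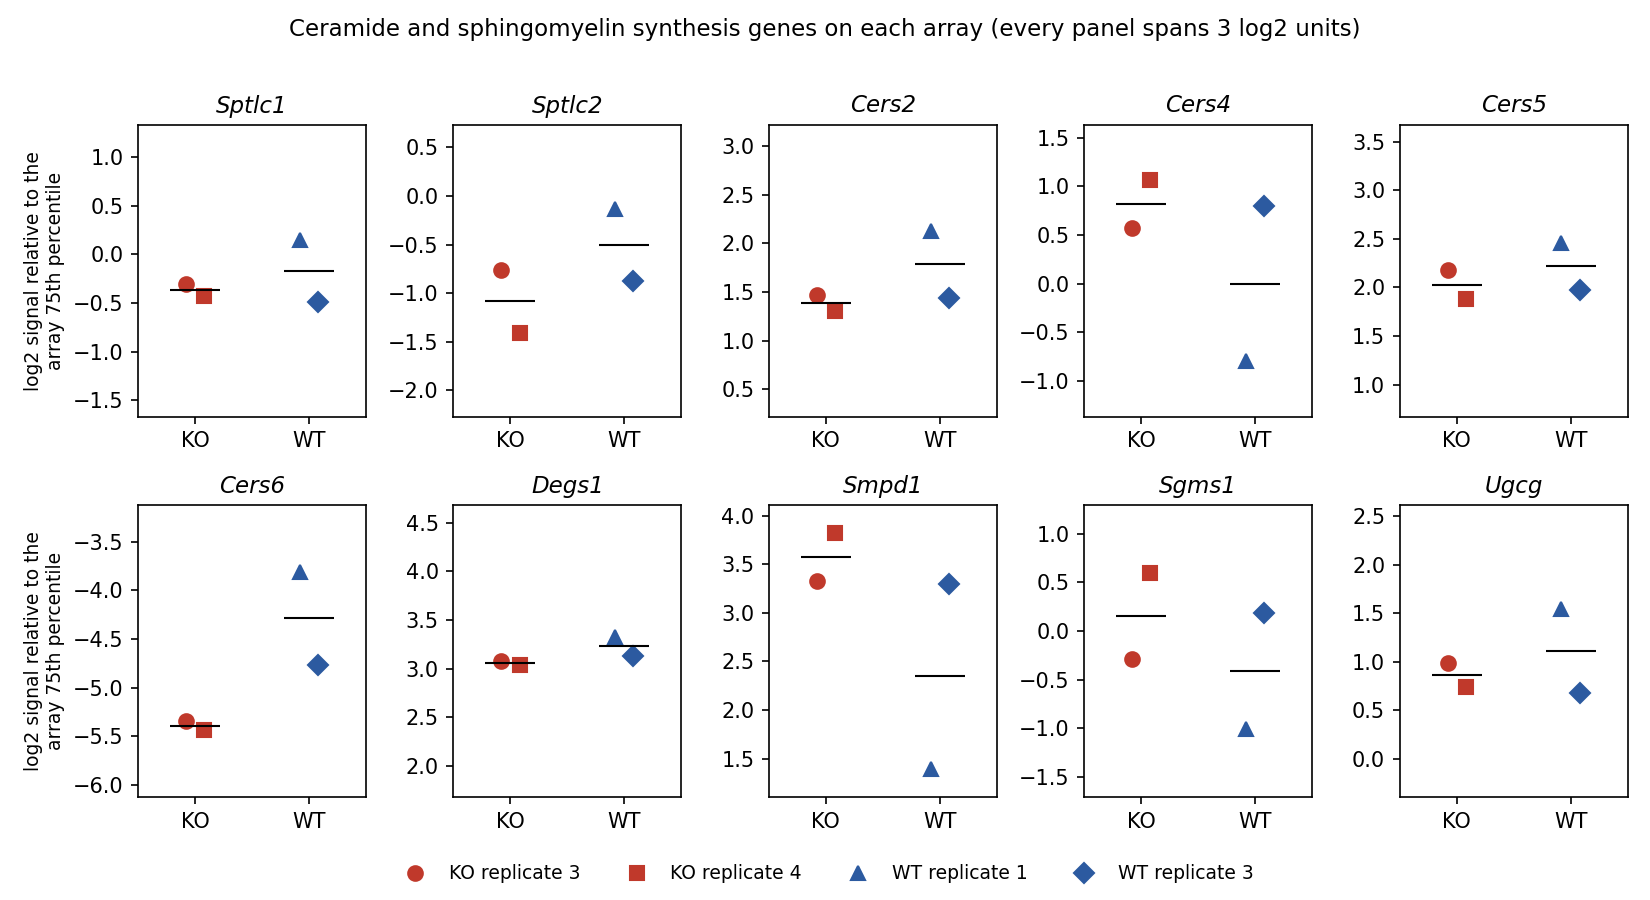
Level of each of the 10 genes on each array (vertical axis, log2 signal relative to the 75th percentile of the array), with KO left of WT and lines at the group means. Every panel spans the same number of log2 units. WT replicate 1, the blue triangle, is the highest point in 7 panels and the lowest in those of Cers4, Smpd1 and Sgms1.

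Smpd1 encodes acid sphingomyelinase, the lysosomal and secreted enzyme that frees ceramide from sphingomyelin. It was at 3.33 and 3.82 on KO replicates 3 and 4, against 1.39 and 3.30 on WT replicates 1 and 3, which in processed signal is 9437 and 8706 units against 2921 and 8409 units. Both KO arrays were higher than both WT arrays, but KO replicate 3 and WT replicate 3 were only 0.03 apart. The group means were 3.57 ± 0.35 in KO and 2.35 ± 1.35 in WT (SD, n = 2 each). The difference was 1.23 (SE 0.73, interval -0.74 to 3.19) and limma's adjusted p = 0.740. Without WT replicate 1 it was 0.27.

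Sgms1, the sphingomyelin synthase of the Golgi, works in the opposite direction, from ceramide to sphingomyelin. Its levels were -0.29 and 0.60 on KO replicates 3 and 4, against -1.01 and 0.19 on WT replicates 1 and 3. The groups overlapped, since KO replicate 3 was lower than WT replicate 3. The difference was 0.57 (SE 0.59, interval -1.02 to 2.15), and without WT replicate 1 it was -0.03. Ugcg, which adds glucose to ceramide and so begins most glycosphingolipids, was at 0.98 and 0.74 on the KO arrays and at 1.54 and 0.68 on WT replicates 1 and 3. Here the WT arrays spanned the KO arrays, and the difference was -0.25 (SE 0.43, interval -1.40 to 0.90).

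**Figure D2:**
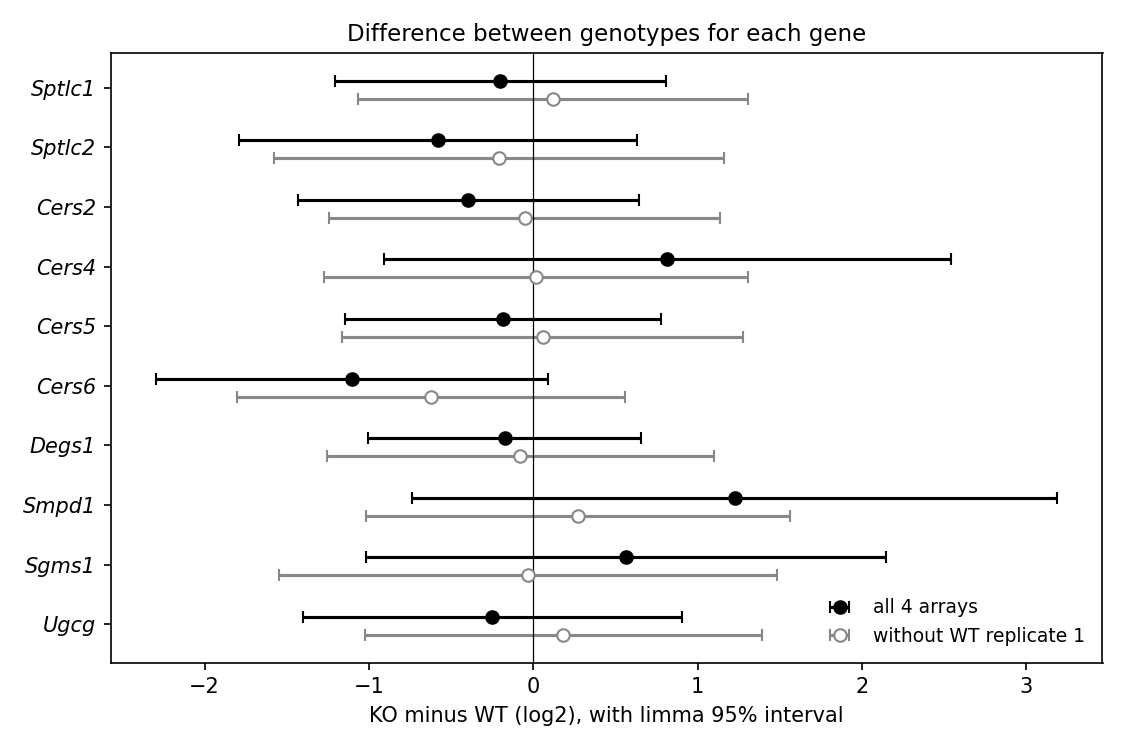
KO minus WT for each gene on the log2 scale (horizontal axis), with limma's 95% interval. Filled points use all 4 arrays and open points leave out WT replicate 1; every interval includes 0, and the open points run from -0.62 for Cers6 to 0.27 for Smpd1.

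The promoters of Smpd1 and Cers4, which were lowest on WT replicate 1, and of Cers6 and Degs1, which were highest there, are shown for reading beside these values. Smpd1, Cers6 and Degs1 did not overlap between genotypes. Each is the 250 bases before the RefSeq start of the gene, in GRCm38.p6, written 5′ to 3′ on the strand of the gene. Capitals mark matches, on either strand, to 4 motifs: CACGTG (an E-box), GGGCGG (a GC box), CCAAT and TATAAA. The windows are chr7:105554110-105554359, plus strand, for Smpd1, chr8:4493155-4493404, plus strand, for Cers4, chr2:68861191-68861440, plus strand, for Cers6, and chr1:182282196-182282445, minus strand, for Degs1.
Smpd1: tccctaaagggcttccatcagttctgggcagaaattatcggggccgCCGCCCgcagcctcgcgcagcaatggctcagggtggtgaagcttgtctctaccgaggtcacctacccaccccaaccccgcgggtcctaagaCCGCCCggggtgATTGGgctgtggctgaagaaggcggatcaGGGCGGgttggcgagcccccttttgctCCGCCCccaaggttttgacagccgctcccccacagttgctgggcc
Cers4: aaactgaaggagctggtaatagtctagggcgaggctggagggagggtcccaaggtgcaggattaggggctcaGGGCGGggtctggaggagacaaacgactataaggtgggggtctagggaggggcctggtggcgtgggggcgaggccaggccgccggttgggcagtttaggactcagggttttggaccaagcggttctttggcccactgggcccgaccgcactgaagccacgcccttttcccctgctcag
Cers6: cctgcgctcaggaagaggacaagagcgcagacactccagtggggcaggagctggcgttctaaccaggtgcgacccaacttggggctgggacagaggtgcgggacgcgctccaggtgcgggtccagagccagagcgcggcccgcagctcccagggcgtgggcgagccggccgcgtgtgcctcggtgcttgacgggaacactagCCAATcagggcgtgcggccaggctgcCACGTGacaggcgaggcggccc
Degs1: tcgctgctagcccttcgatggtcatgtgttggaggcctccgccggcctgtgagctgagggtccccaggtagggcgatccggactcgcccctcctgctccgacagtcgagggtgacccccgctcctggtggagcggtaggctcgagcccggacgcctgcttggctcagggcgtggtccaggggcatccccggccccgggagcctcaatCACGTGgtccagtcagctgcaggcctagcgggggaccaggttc

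The E-box CACGTG, which is its own reverse complement, stood in the windows of Cers6 (bases 22 to 17 before the start), Degs1 (bases 43 to 38) and the upstream start of Cers2. That is 3 of the 10 genes, while 6.02% of all 32851 promoter windows of this length hold it. Smpd1 had 4 matches to the GC box and Cers4 had 1, with 8 of the 10 genes holding it in at least 1 window against 32.7% of all windows. Of the other members highest on WT replicate 1, Sptlc1, Sptlc2, Cers5 and Ugcg held the GC box without CACGTG, and Cers2 held both. The windows shown therefore do not stand for all members of either direction, and motifs were not tested against direction. CCAAT was found for 6 of 10 genes, against 33.9% of windows, and TATAAA for 0 of 10, against 12.4%. Cers2 and Sgms1 have several starts in the table, which gives them more windows than the other members. The GC share was 64.8%, 63.2%, 70.4% and 69.6% in the windows of Smpd1, Cers4, Cers6 and Degs1, and the median of all windows was 52.4%. A match is a stretch of letters, and binding was not measured.

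Taken as a list, 7 of the 10 genes had a lower mean in KO, where 45.2% of all features did, and 3 had a higher mean, where 54.8% did. The median difference of the members was -0.19, against 0.07 over all features. When each array was scaled to its median in place of the 75th percentile, all features shifted by -0.11, which put the medians at -0.30 for the members and -0.04 for all features. Each of the 10 genes kept its direction under that scaling and under quantile normalization. The genotypes did not overlap for 3 of 10 members, close to the 34.4% of all features. Both KO arrays were above both WT arrays for 1 of them, Smpd1 (18.3% of features), and below for 2, Cers6 and Degs1 (16.1% of features).

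Much of the spread lay within a genotype. The WT arrays differed from each other by more than the genotype means did for 9 of 10 members, Cers6 being the exception, and for 68.0% of all features. The KO arrays did so for 3 of 10 members (Sptlc2, Cers5 and Sgms1) and 50.4% of features. The median size of the difference between the WT arrays was 0.80 for the members and 0.57 for all features, and between the KO arrays it was 0.27 and 0.43. WT replicate 1 was the highest or the lowest array for 10 of 10 members, a count made after the values were seen, and for 80.7% of all features.

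KO replicate 3 and WT replicate 3 were close. Their levels differed by a median size of 0.19 over the members and 0.21 over all features. The largest gaps between them were 0.58 for Cers6 and 0.48 for Sgms1, both lower on the KO array. Without WT replicate 1 the sign of KO minus WT turned for 4 of 10 members (Sptlc1, Cers5, Sgms1 and Ugcg), as it did for 22.2% of all features, and the median of the members was -0.0088.

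Cell type markers moved with the same arrays. The 16 ventricular cardiomyocyte markers averaged 6.13 and 6.94 on KO replicates 3 and 4, against 2.22 and 6.33 on WT replicates 1 and 3, and all 16 were well above background on all 4 arrays. Smpd1, Cers4 and Sgms1 were lowest, like these markers, on WT replicate 1. The 16 macrophage markers tested, of 17 listed, averaged 2.39 and 1.13 on the KO arrays and 3.43 and 2.49 on WT replicates 1 and 3. All 16 had a lower mean in KO, as did 45.2% of all features. Sptlc2, Cers2, Cers5, Cers6 and Degs1 shared their highest array, WT replicate 1, and their lowest, KO replicate 4, with this list. Endothelial markers (11 of 11 tested) averaged 1.94 and 1.89 in KO and 1.28 and 1.68 in WT. What these shifts contribute to the members' differences was not tested, and in RNA from whole hearts fewer cells of a type cannot be told from less RNA per cell.

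**Figure D3:**
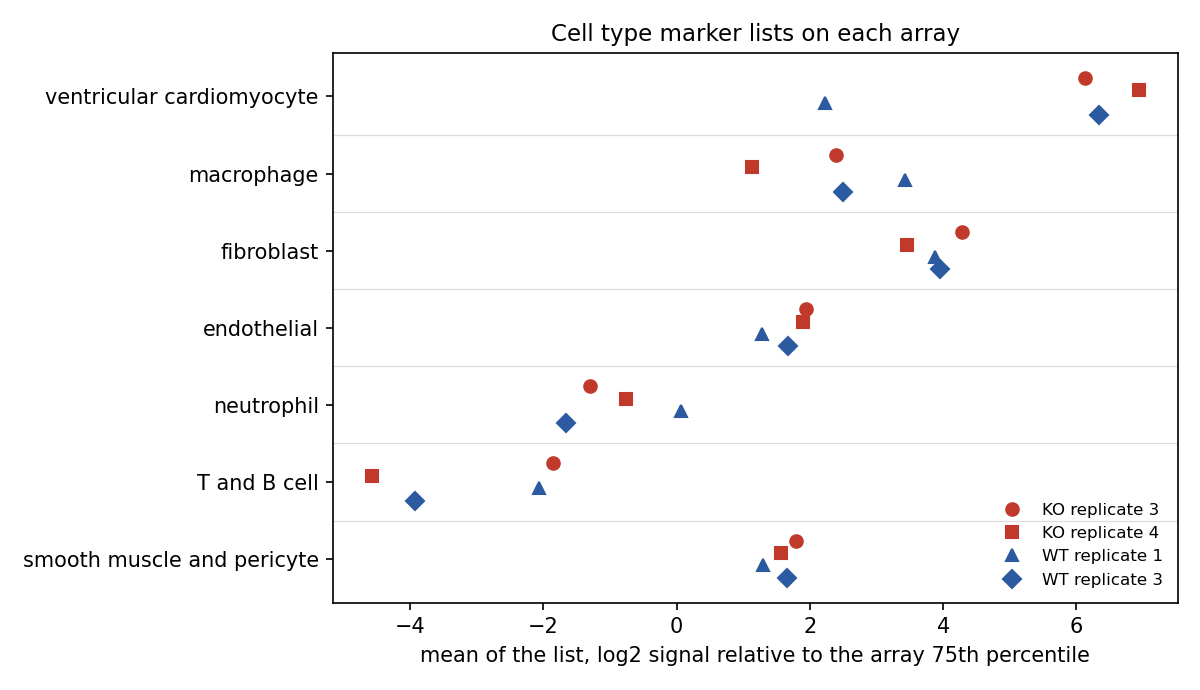
Mean level of each cell type marker list on each array (horizontal axis, log2 signal relative to the 75th percentile of the array), one row per list. Ventricular cardiomyocyte markers lie at 2.22 on WT replicate 1 and between 6.13 and 6.94 on the other 3 arrays, and macrophage markers run from 1.13 on KO replicate 4 to 3.43 on WT replicate 1.

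Smaller marker lists followed other orders. Fibroblast markers averaged 4.28 and 3.46 on the KO arrays and 3.87 and 3.95 on the WT arrays. The 7 neutrophil markers tested averaged -1.30 and -0.76 in KO and 0.06 and -1.66 in WT, the 7 T and B cell markers -1.86 and -4.57 in KO and -2.06 and -3.93 in WT, and the 8 smooth muscle and pericyte markers 1.79 and 1.57 in KO and 1.29 and 1.65 in WT. None of these orders has WT replicate 1 at one end and KO replicate 4 at the other, the pattern of 8 of the 10 members and of 58.1% of all features. WT replicate 1 and KO replicate 4 were at slide positions 4 and 1.

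The other genes of the pathway gave the same count of calls. Of 44 counted here, 42 had a named probe, 36 passed the filter and were tested, and 0 passed in either direction, nor did any have an unadjusted p under 0.05 in limma. The means of 23 of 36 were lower in KO (45.2% of all features) and of 13 higher (54.8%), with a median difference of -0.29 that was -0.10 without WT replicate 1. Without overlap between the genotypes were 7 of 36 genes that were lower (16.1% of all features) and 4 that were higher in KO (18.3%).

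In the rest of de novo synthesis, 7 of 9 tested genes had a lower mean in KO and 2 a higher one (median -0.241, and -0.235 without WT replicate 1). Elovl1, an elongase that supplies very long acyl chains, was at 2.59 and 1.90 in KO against 3.50 and 2.65 in WT, a difference of -0.83 (SE 0.48) with no overlap between the groups, and -0.41 without WT replicate 1. Ormdl2, one of the proteins that hold serine palmitoyltransferase in check, was at 0.28 and -0.30 in KO against 1.16 and 0.16 in WT (difference -0.67, SE 0.49, and -0.17 without WT replicate 1). Rtn4, which encodes Nogo proteins known to restrain the same enzyme in endothelium, was at 2.14 and 0.74 in KO against 2.53 and 2.06 in WT (difference -0.86, SE 0.58). The low value of Rtn4 was that of KO replicate 4. Sptlc3, a paralog of Sptlc2, was dim and differed by -0.34 (SE 0.32). Cers1 had no probe named here.

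Among genes that make, cut or carry sphingomyelin and ceramide, 4 of 9 had a lower and 5 a higher mean in KO (median 0.02, and -0.12 without WT replicate 1). Sgms2, the synthase of the plasma membrane and a paralog of Sgms1, was at -3.35 and -5.82 in KO against -1.96 and -3.45 in WT, a difference of -1.88 (SE 1.02, adjusted p = 0.740 in limma), so the paralogs had opposite signs. Sgms2 was dim on KO replicate 4, with a processed signal of 10.9 units. Its level there lay below the lowest signal that was well above background on WT replicate 1, -4.39. Without WT replicate 1 the differences were -1.14 for Sgms2 and -0.03 for Sgms1, of the same sign. On the arrays numbered 3 alone, Sgms2 differed by 0.098. The neutral sphingomyelinase Smpd2 was at -1.98 and -1.41 in KO against -3.33 and -2.05 in WT, a difference of 0.99 (SE 0.56), with the KO arrays above the WT arrays. Without WT replicate 1 it was 0.35, and on the arrays numbered 3 alone it was 0.073. Smpdl3b differed by -0.49 (SE 0.34), and Cptp, which carries ceramide 1-phosphate, by -0.59 (SE 0.43), or by -0.51 and -0.21 without WT replicate 1.

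Ceramidases and ceramide kinase had 3 of 5 tested genes lower and 2 higher (median -0.50, and -0.10 without WT replicate 1). Asah2, the neutral ceramidase, was at -1.27 and -1.19 in KO against -2.22 and -1.73 in WT, and its difference of 0.75 (SE 0.35) was 0.50 without WT replicate 1. The alkaline ceramidase Acer3 was at -0.82 and -1.33 in KO against 0.05 and -0.60 in WT (difference -0.80, SE 0.41). Neither pair of groups overlapped. Asah1, the lysosomal acid ceramidase, differed by -0.59 (SE 0.50), and the ceramide kinase Cerk by -0.50 (SE 0.37). Without WT replicate 1 the differences were -0.47 for Acer3, -0.10 for Asah1 and -0.20 for Cerk.

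Of 13 tested genes that build or break glycosphingolipids, 9 had a lower and 4 a higher mean in KO (median -0.35, and -0.05 without WT replicate 1). Hexa, a subunit of lysosomal hexosaminidase, was at 3.23 and 2.50 in KO against 4.05 and 3.12 in WT. KO replicate 3 lay above WT replicate 3, so the groups overlapped, and the difference was -0.72 (SE 0.50), or -0.26 without WT replicate 1. St3gal5, which adds sialic acid to lactosylceramide, was at 2.03 and 2.64 in KO against 1.09 and 2.07 in WT. Its difference was 0.76 (SE 0.49), and 0.27 without WT replicate 1, the array on which it was lowest.

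**Figure D4:**
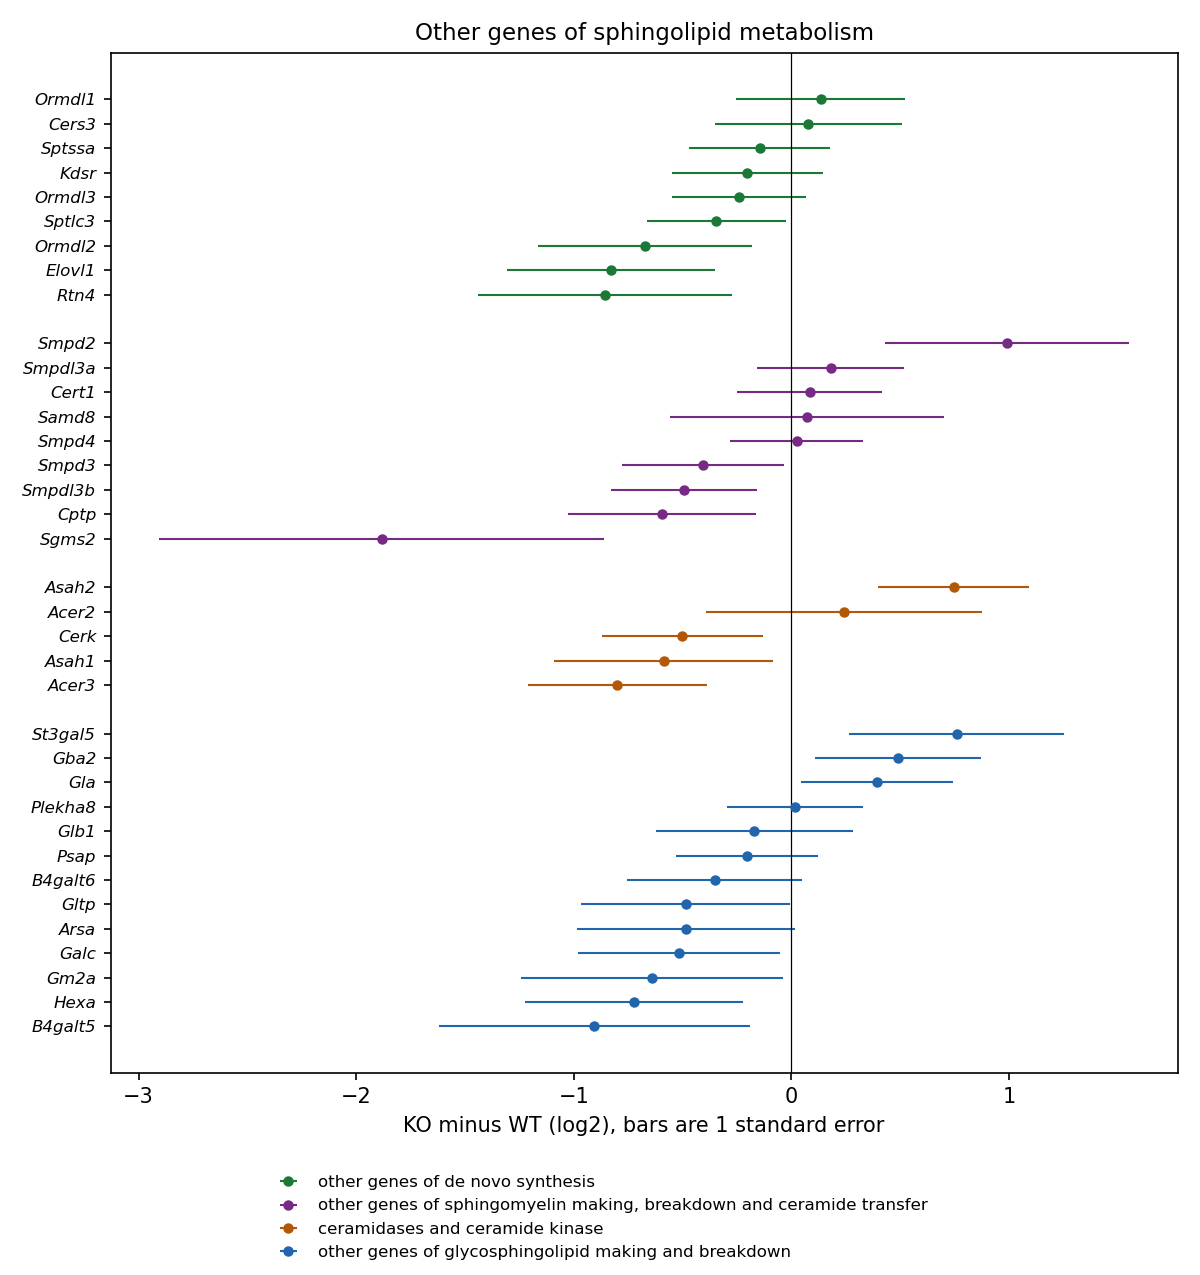
KO minus WT on the log2 scale (horizontal axis) for the 36 other sphingolipid genes tested, coloured by list, with bars of 1 standard error. None passed the test. Sgms2, which was dim on KO replicate 4, has the most negative value, -1.88, and Smpd2 the most positive, 0.99.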

How the data were processed

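Total RNA of 4 heart samples was labelled with Cy3, per the labels' protocols. Per the file headers, Feature Extraction 11.0.1.1 read the spots, while the submitters' processing notes name version 9.1. The processed signal is a linear intensity that the scanner software had background-subtracted and detrended, per the file headers. Other values are the spot flags, deposited by the authors and kept unchanged. In the authors' deposited value table the log2 values have the same quartiles in every column, with a median of 6.106 and slopes of 0.997 to 1.009 on the log2 scanner signal. The scaling method is not given in the sources used here.

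Outlier spots and controls were left out, spots of a probe were averaged on the log2 scale, and the 75th percentile of each array was subtracted. No spot was saturated. RefSeq accessions (GRCm38.p6 table) named 27234 of 39429 probes. The files have no gene name column. The grid names mm9, so only promoter windows carry coordinates. A probe was kept if 2 or more arrays, of any genotype, had it well above background, and the brightest probe stands for a gene. KO was compared with WT by limma 3.58.1 in R 4.3.3 (lmFit, eBayes, two-sided, Benjamini-Hochberg over 22931 features). This fit was tested on simulated data. The number of arrays limits the precision.

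The members and lists were chosen with earlier results of these data known. Named genes are the 10 members, S1pr1, Sptlc3 and Sgms2, and up to 4 genes of smallest p in each pathway list. Some genes of these lists are not reported here. Alternatives were scaling, filter, background correction, the deposited values, probe averaging, variance model, a common floor and each array left out.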

Additional observations from a re-analysis of the deposited data

How the results depend on the processing

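No paired analysis was run, because the labels name no pairs between the genotypes. They share 1 replicate number, which is not described as a pairing. Each of the 10 genes and S1pr1 was refitted under 13 alternatives, which gave 130 values for the members. None was called (with all 4 arrays kept, limma's adjusted p was 0.729 or more), and 126 kept their direction. Many of these values could not turn. The filter and variance model settings left the members' differences unchanged. Probe averaging changed only that of Sptlc2, and the common floor only that of Cers6. The 4 values that reversed were all without WT replicate 1: Sptlc1 (0.120), Cers5 (0.0567), Sgms1 (-0.0327) and Ugcg (0.184). Without WT replicate 3 these were -0.523, -0.428, 1.16 and -0.680, the other end of their range with 1 array left out. S1pr1 ranged from -3.45 to -2.73. The count of features called over all features was 0 in every setting run. Features at an unadjusted p under 0.05 numbered 633, and 418 with a filter on all 4 arrays. With 1 array left out they ranged from 167 (without KO replicate 4) to 4251 (without WT replicate 3), with 379 without WT replicate 1 and 1314 without KO replicate 3. The median difference of the members, -0.19, was -0.30 with median scaling and -0.476 to -0.0088 with 1 array left out. Members that did not overlap between genotypes numbered 3. They numbered 2 under quantile normalization, the deposited values and the common floor, and 4 under normexp on median signals. With 1 array left out they numbered 3 to 10, and there a lone array overlaps less often by construction. Members at an unadjusted p under 0.05 in limma numbered 0 in every setting that kept all 4 arrays. Without WT replicate 3, which leaves WT replicate 1 as the lone WT array, the differences of Smpd1, Cers4 and Cers6 were 2.18, 1.62 and -1.58. Without WT replicate 1 they were 0.27, 0.02 and -0.62. A lone array was assumed to vary like the other genotype. Normexp on mean signals had been planned but was not run, since the scanner data read here hold no mean signal. Median signals took its place. Signal over background limits Cers6 most.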
